A study of Homo sapiens with 10 samples.

Results

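The integrated stress response is described here through 10 of its core and feedback genes, ATF4, DDIT3, TRIB3, CHAC1, SESN2, DDIT4, PPP1R15A, PPP1R15B, EIF2AK1 and EIF2AK4. They were picked by gene name from the 32738 genes of a count table of HepG2 cells, a human hepatoma line. Cells of the untreated group received regular growth medium for 17 h, and cells of the tunicamycin group received the same serum-supplemented medium with 2 µg/ml tunicamycin, an inhibitor of N-linked glycosylation that induces ER stress, for 17 h. Each group holds 5 libraries, from 5 replicate experiments performed on separate days. The libraries were made with the QuantSeq method, in which reads come from the 3′ end of each mRNA, so that counts follow transcript numbers and not transcript length. The data describe 1 cell line at 1 dose and 1 time. Of the 10 genes, 9 had counts and all 9 passed the filter on low counts, while CHAC1 had none.

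In the integrated stress response, kinases of the translation initiation factor eIF2 phosphorylate its alpha subunit when a cell senses stress. EIF2AK3 (PERK) responds to unfolded proteins in the ER, EIF2AK4 (GCN2) to uncharged tRNA, EIF2AK1 (HRI) to lack of heme and to mitochondrial stress, and EIF2AK2 (PKR) to double-stranded RNA. Phosphorylated eIF2 lowers protein synthesis in general, yet the ATF4 mRNA is then translated more, because upstream reading frames in its leader hold translation back in unstressed cells. ATF4 in turn activates genes for amino acid supply, the transcription factor CHOP (DDIT3) and feedback regulators. PPP1R15A (GADD34) and PPP1R15B (CReP) bring protein phosphatase 1 to eIF2 and so reverse the phosphorylation, the former as an inducible and the latter as a constitutive subunit.

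The total per library was 4242538 to 4888292 counts in untreated cells and 2234682 to 5029864 in tunicamycin-treated cells, where replicate 5 was the smallest and replicate 4 the next. Mitochondrial transcripts took 22.8% to 25.2% of untreated and 18.3% to 28.8% of tunicamycin counts. Between libraries of the same group, Pearson's r of log2 values over genes (not replicates) lay between 0.981 and 0.991, and no pair was identical. All 12 hepatoma markers examined, among them ALB, AFP, APOA1 and HNF4A, had counts in every library. Their summed level was lower with tunicamycin, at 13470 to 16050 CPM (counts scaled to the library total) against 18950 to 23810 CPM, and the part of this in the results was not tested. Of the 12 markers, 6 lay lower in all tunicamycin libraries, among them APOB (3091 to 5538 against 7126 to 8185 CPM), which made up much of the sum. The other 6 overlapped, among them ALB and HNF4A (100.4 to 132 with and 89.3 to 113 CPM without tunicamycin). Of 12 markers of other cell types, 11 were in the table and only ACTA2 and CD68 had counts in every library of either group. PTPRC, CD3E, COL1A2, GFAP and KRT5 were at 0 throughout, and the summed level of the list was 15.7 to 41.5 CPM with tunicamycin and 30.7 to 47.9 without. HSPA5, the ER chaperone BiP and the check of the treatment, rose with a log2 fold change of 2.97 (standard error, SE, 0.08). In bulk RNA, fewer cells of a kind and less RNA per cell cannot be told apart.

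Tunicamycin split the 9 measured genes. PPP1R15A, DDIT3 and TRIB3 rose, by 2.86-fold, 2.67-fold and 1.74-fold, and EIF2AK4 fell slightly, to 0.813 of its untreated level. ATF4 itself, SESN2, DDIT4, PPP1R15B and EIF2AK1 did not pass the test, with fitted folds between 0.976 and 1.06. The test was edgeR's quasi-likelihood test with Benjamini-Hochberg adjustment over all 12733 genes tested and a threshold of 0.05. Of all these genes 17.6% were called higher and 16.6% lower (2237 and 2116 genes, or 1774 and 2570 with scaling to library size only), beside 3 and 1 of the 9. Every tunicamycin library lay above every untreated library for 11.7% of all tested genes and below for 11.9%, and this held for the same 3 and 1 of the 9. The plot of normalized counts by library shows the split. Normalized counts are counts put on 1 common library size by TMM factors.

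**Figure D1:**
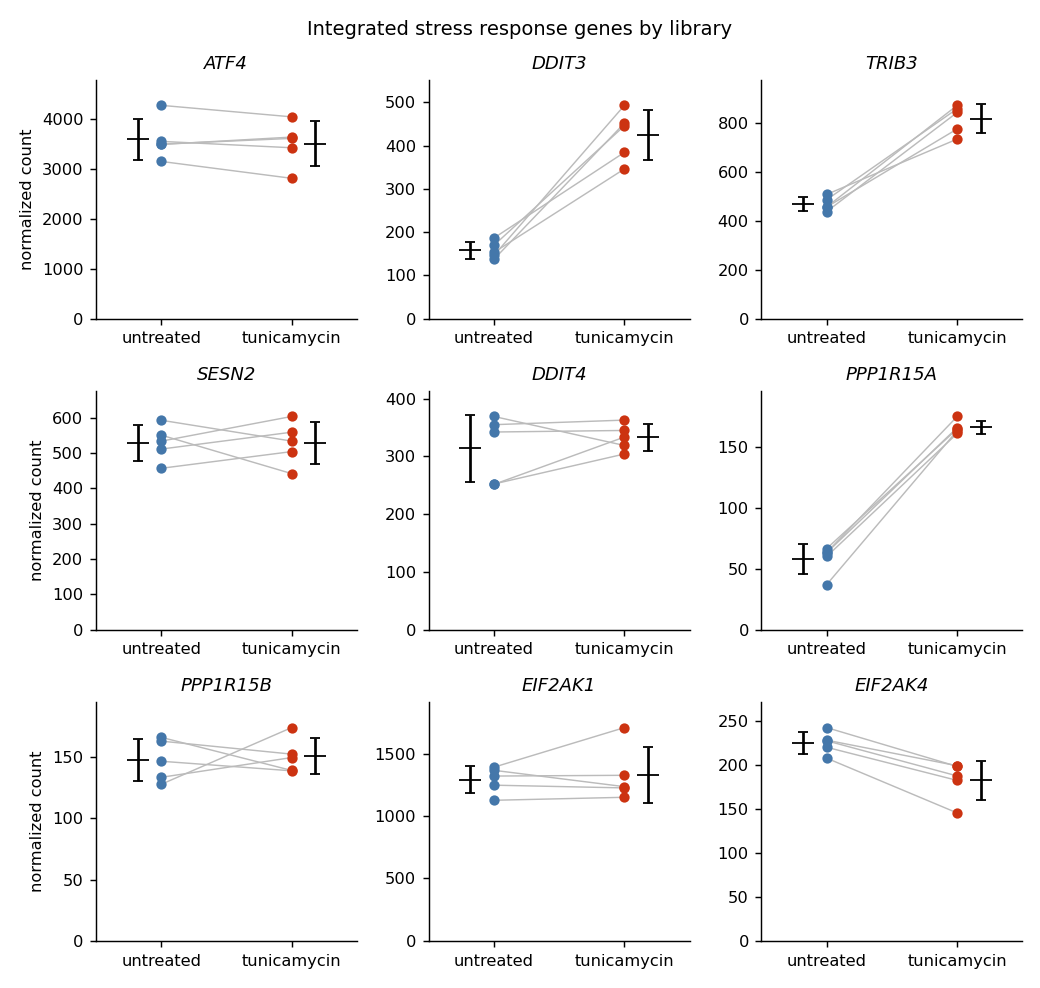
Normalized counts (vertical axes, linear, from 0) of the 9 genes with counts in the 5 untreated libraries (blue) and the 5 tunicamycin libraries (red). Grey lines join libraries of the same replicate number, and black bars give the mean ± SD. The groups are separate for DDIT3, TRIB3, PPP1R15A and EIF2AK4 and overlap for the other genes.

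On GRCh38 with GENCODE annotation, ATF4 covers 39519695 to 39522683 of chromosome 22 (plus strand), DDIT3 57516588 to 57521737 of chromosome 12 (minus), TRIB3 362835 to 397559 of chromosome 20 (plus), CHAC1 40952962 to 40956512 of chromosome 15 (plus) and PPP1R15A 48872212 to 48876059 of chromosome 19 (plus). SESN2 covers 28259518 to 28282491 of chromosome 1 (plus), DDIT4 72273919 to 72276036 of chromosome 10 (plus), PPP1R15B 204396492 to 204411887 of chromosome 1 (minus), EIF2AK1 6022247 to 6059175 of chromosome 7 (minus) and EIF2AK4 39934115 to 40035591 of chromosome 15 (plus). The authors counted on hg19, of which no coordinate is given here. Promoters, taken as 250 bases before to 50 after the RefSeq start, were found for 9 of the 10 genes, all but EIF2AK1, and were searched on both strands for 4 motifs. These were TGATGNAA, the core of the element bound by ATF4 with C/EBP partners, TGACGTGG, the UPR element, CCAAT and CCACG spaced by 9 bases, the ER stress element, and TGAGTCA or TGACTCA, the AP-1 site. Only 3 matches were found, which did not overlap each other or another motif. They are shown with 30 bases of RefSeq sequence (GRCh38.p14) in the direction of transcription, with the motif in capitals, because they set the sequence beside the response of the gene. DDIT3 at chr12:57520735-57520764 (minus strand) has an AP-1 site that begins at -241, CHAC1 at chr15:40953251-40953280 (plus strand) the ATF4 element core on the opposite strand at -209, and PPP1R15B at chr1:204412026-204412055 (minus strand) the same core at -227. These positions count from the RefSeq start in the table, and other annotated transcripts begin elsewhere. By GENCODE, the CHAC1 match lies in an exon of CHAC1 itself, the DDIT3 match within the span of DDIT3 and of MBD6 on the opposite strand but in no exon, and the PPP1R15B match in an exon of a noncoding RNA gene on the opposite strand.
DDIT3: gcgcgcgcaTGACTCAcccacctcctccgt
CHAC1: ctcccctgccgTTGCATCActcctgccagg
PPP1R15B: cccgccccggcTGATGCAAcctcacgctgc

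The ATF4 element core stood in the windows of CHAC1, whose response could not be measured, and of PPP1R15B, which did not pass the test. The windows of DDIT3, TRIB3 and PPP1R15A, which rose, do not hold these letters. For TRIB3 and DDIT3 the authors cite studies of regulation by ATF4 through its sites shared with C/EBP factors. Where those sites lie relative to these windows was not examined. Among all 27305 promoters of the table, 3.67% held TGATGNAA, 4.92% an AP-1 site, 0.795% the UPR element and 0.0806% the ER stress element. Of 49 promoters found for a list of known ATF4 targets, 12 (24.5%) held TGATGNAA and 3 (6.12%) an AP-1 site. These letters describe only a short window around 1 start per gene, and elements outside it, or with other letters, were not searched.

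ATF4, the transcription factor at the center of the response, was the most abundant of these mRNAs in both groups, and its difference between them did not pass the test. Untreated replicates 1 to 5 had 4279, 3501, 3494, 3154 and 3556 normalized counts, and tunicamycin replicates 1 to 5 had 4048, 3616, 3642, 2815 and 3428. The ranges overlapped, and the highest library of each group was replicate 1 and the lowest replicate 4. The log2 fold change was -0.03 (SE 0.10, edgeR adjusted p = 0.824). Its 95% interval corresponds to 0.842 to 1.13 times the untreated level. The value was positive in 2 and negative in 3 of the 5 replicate pairs, and its sign also changed without untreated replicate 1 (0.04) and without tunicamycin replicate 4 (0.04). The GENCODE annotation lists 4 processed pseudogenes of ATF4, none of which has a row in the count table, and how reads shared with them were counted is not given in the sources used here.

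DDIT3 encodes CHOP, a C/EBP-family transcription factor induced by ATF4 and linked to cell death in prolonged stress. Untreated replicates 1 to 5 had 169.6, 146, 186, 153 and 137 normalized counts, and tunicamycin replicates had 446, 493, 384.5, 346 and 452. All tunicamycin libraries lay above all untreated ones. This alone gives p = 0.00794 in a two-sided exact permutation test that ignores the replicate pairs, its minimum with 5 against 5. The log2 fold change was 1.42 (SE 0.11, edgeR adjusted p = 2.1e-08). The 95% interval of the fold was 2.26 to 3.16, and the change exceeded that of 97.3% of all tested genes. Within replicate pairs the log2 ratio ran from 1.04 in replicate 3 to 1.75 in replicate 2. The last exon of DDIT3, from which 3′ reads would come, shares bases with an exon of MARS1 on the opposite strand. MARS1, a tRNA synthetase gene listed as MARS, also rose (log2 fold change 0.85), and the strand setting of the counting is not given in the sources used here. Reads of both genes cannot be told apart in that stretch if counting ignored the strand. A further annotated gene, ENSG00000285133, shares exon bases with DDIT3 on its own strand.

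TRIB3 encodes a pseudokinase that binds ATF4 and CHOP and restrains their activity. Its 5 untreated libraries had 457, 456.6, 486.5, 438 and 508 normalized counts, and its tunicamycin libraries 872.5, 776, 859, 843.5 and 734.5. The groups did not overlap and TRIB3 was higher in 5 of 5 pairs, with pair log2 ratios from 0.53 in replicate 5 to 0.94 in replicate 4. The fitted log2 fold change of 0.80 (SE 0.08, edgeR adjusted p = 5.27e-07) exceeded that of 90.7% of tested genes, and its interval as a fold was 1.54 to 1.97. Its libraries were close together, with an SD of 5.93% of the mean in untreated and 7.24% in tunicamycin-treated cells. The exons of its main annotated (canonical) transcript share no bases with those of another gene, and exons of its other transcripts were not compared.

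CHAC1, a glutathione-degrading enzyme and a frequently used marker of ATF4 and CHOP activity, had 0 counts in all 10 libraries. This allows up to 3 counts per library, which corresponds to 2.53 to 6.05 normalized counts, for counting error only. No change could be measured. FGF21, a secreted target of the response, was also at 0 counts throughout. The table cannot show whether these genes lacked transcripts or whether the annotation or the counting left out their reads, and in the latter case the bound does not hold. CHAC2, the paralog of CHAC1, had 10.2 ± 2.47 normalized counts in untreated and 11.5 ± 4.1 in tunicamycin-treated cells (SD, n = 5 each), with a log2 fold change of 0.18 and a wide 95% interval of -0.54 to 0.90.

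SESN2 and DDIT4 (REDD1) are stress-induced inhibitors of the growth kinase complex mTORC1. SESN2 had 511, 593, 534, 457 and 551 normalized counts in replicates 1 to 5 without tunicamycin and 559, 534, 603.6, 504 and 442 in the replicates with it. Replicate 2 was the highest without and replicate 3 the highest with tunicamycin, and the ranges overlapped almost entirely. The log2 fold change was 0.0041 (SE 0.10, edgeR adjusted p = 0.979), and the 95% interval corresponds to 0.871 to 1.16 times the untreated level. DDIT4 had 252.2, 251.5, 342, 355 and 369 normalized counts in untreated and 304, 333, 345, 363 and 319 in tunicamycin replicates 1 to 5. Untreated replicates 1 and 2 were the low ones, and replicates 3 to 5 lay within or near the tunicamycin range. DDIT4 had a log2 fold change of 0.09 (SE 0.12, edgeR adjusted p = 0.611), with an interval of 0.896 to 1.25 times the untreated level.

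The eIF2 phosphatase subunits differed from each other in their response. PPP1R15A, the inducible subunit, had 37.0, 63.3, 66.5, 60.03 and 63.0 normalized counts in replicates 1 to 5 without tunicamycin and 163, 174.6, 164, 160.7 and 165.5 in the replicates with it. Untreated replicate 1 stood below the other 4, and the tunicamycin libraries were close together, with an SD of 3.22% of the mean. The log2 fold change was 1.52 (SE 0.14, edgeR adjusted p = 1.51e-07), higher than that of 97.6% of tested genes, with an interval of 2.32 to 3.52 as a fold. Without untreated replicate 1 it was 1.39. PPP1R15B, the constitutive subunit, had 146, 127.5, 163, 166 and 133 normalized counts in untreated and 138.5, 174, 152, 139 and 149 in tunicamycin replicates. Its groups overlapped. The log2 fold change of 0.03 (SE 0.12, edgeR adjusted p = 0.852) has an interval of 0.865 to 1.21 times the untreated level.

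Of the eIF2 kinases, EIF2AK1 (HRI) had 1126, 1366, 1320, 1391 and 1247 normalized counts in replicates 1 to 5 without tunicamycin and 1150, 1235, 1326, 1708 and 1225 in the replicates with it. The groups overlapped, with tunicamycin replicate 4 above all other libraries. Its log2 fold change was 0.04 (SE 0.10, edgeR adjusted p = 0.791), with an interval of 0.885 to 1.2 times, and -0.06 without tunicamycin replicate 4. Its last exon shares bases with an exon of AIMP2 on the opposite strand, and AIMP2 rose (0.60). For EIF2AK1 1 processed pseudogene is annotated, which has no row in the table. EIF2AK4 (GCN2) had 243, 220.3, 228, 208 and 228 normalized counts in untreated and 198.5, 183, 199, 145.6 and 188 in tunicamycin replicates. All tunicamycin libraries lay below all untreated ones, which alone gives the same minimal p of 0.00794 in the exact permutation test without pairs. The log2 fold change was -0.30 (SE 0.11, edgeR adjusted p = 0.035), with an interval of 0.698 to 0.948 times the untreated level, and EIF2AK4 was lower in 5 of 5 pairs. This call was lost in 7 of the 10 fits that left out a library (untreated replicate 1, 2, 3 or 5, or tunicamycin replicate 2, 4 or 5), with adjusted p-values of 0.0508 to 0.0988 and log2 fold changes of -0.31 to -0.22.

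**Figure D2:**
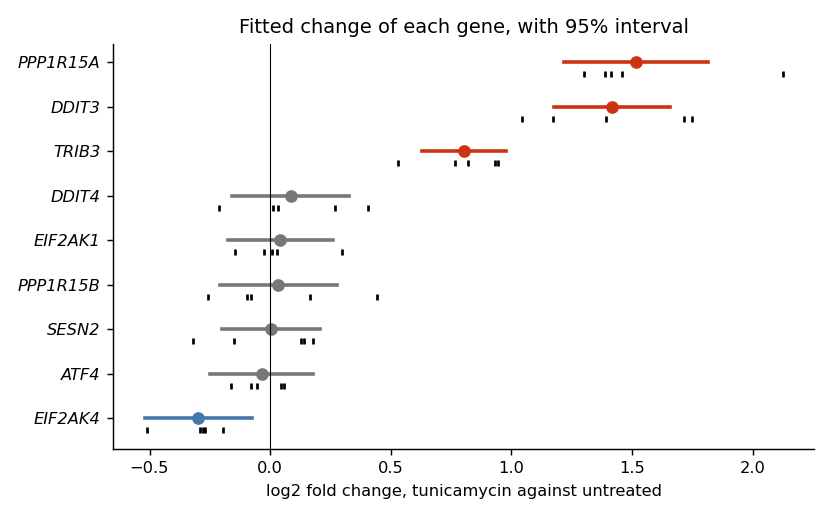
Fitted log2 fold change of the 9 genes (horizontal axis, tunicamycin against untreated) with its 95% interval, red for genes called higher, blue for the gene called lower and grey for the rest. Small black ticks below each line are the 5 log2 ratios within replicate pairs. The intervals of PPP1R15A, DDIT3 and TRIB3 lie above 0, that of EIF2AK4 lies below 0, and the other 5 include 0.

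Ratios of gene pairs within a library do not depend on how libraries are scaled, and 5 such ratios were compared. In untreated cells there were 0.255, 0.498, 0.41, 0.364 and 0.475 PPP1R15A counts per PPP1R15B count in replicates 1 to 5, and with tunicamycin 1.18, 1.01, 1.08, 1.16 and 1.11. The inducible subunit thus went from below the constitutive one in every untreated library to near-equal counts with tunicamycin. Its count was slightly the higher in each tunicamycin library, but in replicate 2 only by 176 to 175. The log2 ratio moved by 1.501, from -1.36 ± 0.386 to 0.14 ± 0.0896 (SD, n = 5 each). DDIT3 per ATF4 lay between 0.0387 and 0.0535 in untreated libraries and between 0.106 and 0.137 with tunicamycin, and TRIB3 per ATF4 lay between 0.107 and 0.143 without and between 0.214 and 0.2998 with tunicamycin. These 3 ratios rose in 5 of 5 pairs without overlap, and each had p = 0.00794 in a two-sided exact permutation test, or 0.0132 after Benjamini-Hochberg adjustment over the 5 ratios. With only the replicate pairs permuted, 5 pairs cannot give a two-sided p below 0.0625, so that the paired form of the test cannot pass the threshold.

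The kinase ratio EIF2AK1 to EIF2AK4 was 4.63 to 6.68 in untreated and 5.78 to 11.7 in tunicamycin libraries. It was higher in 5 of 5 pairs, but the groups overlapped and the difference of 0.34 on the log2 scale did not pass the test (exact permutation p = 0.0794, adjusted 0.0992). Tunicamycin replicate 4 gave the 11.7, while the other 4 lay between 5.78 and 6.75. Without tunicamycin replicate 1 the difference was 0.42 (exact permutation, adjusted p = 0.0397). The SESN2 to DDIT4 ratio was 1.29 to 2.36 in untreated and 1.39 to 1.84 in tunicamycin libraries, and the difference of -0.11 on the log2 scale did not pass (exact permutation p = 0.571, adjusted 0.571). Its sign changed without untreated replicate 2 (0.01).

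**Figure D3:**
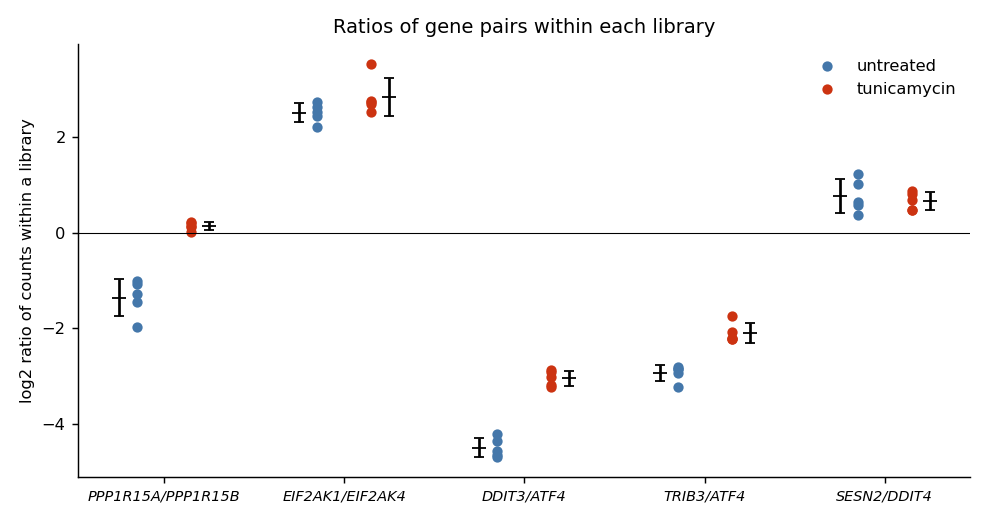
Log2 ratio of counts of 2 genes within each library (vertical axis) for 5 gene pairs, in untreated (blue) and tunicamycin (red) libraries, with the mean ± SD as black bars. The groups are separate for PPP1R15A/PPP1R15B, DDIT3/ATF4 and TRIB3/ATF4, and PPP1R15A/PPP1R15B crosses 0, where both genes have equal counts.

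In 3′ counts the order of the levels in untreated cells was ATF4 (3597 ± 413 normalized counts), EIF2AK1 (1290 ± 107), SESN2 (529 ± 50.3), TRIB3 (469 ± 27.8), DDIT4 (314 ± 57.5), EIF2AK4 (225 ± 12.7), DDIT3 (158.5 ± 19.6), PPP1R15B (147 ± 17.1) and PPP1R15A (58.0 ± 11.9; SD, n = 5). Neighbours in this order did not overlap, other than SESN2 with TRIB3 and DDIT3 with PPP1R15B. With tunicamycin TRIB3 (817 ± 59.2) moved above SESN2 (528.5 ± 60.6), DDIT3 (424 ± 58.5) above DDIT4 (333 ± 22.7) and EIF2AK4 (183 ± 21.9), and PPP1R15A (166 ± 5.33) above PPP1R15B (150.5 ± 14.3). There TRIB3 was separate from SESN2, while SESN2 overlapped DDIT3, DDIT3 overlapped DDIT4, EIF2AK4 overlapped PPP1R15A, and PPP1R15A overlapped PPP1R15B in range although it was above it in each of the 5 libraries. ATF4 made up 52.9% ± 3.75 of the counts of the 10 genes in untreated and 47.1% ± 4.19 in tunicamycin libraries (SD, n = 5 each). The share of DDIT3 was 2.34% ± 0.268 and 5.7% ± 0.75, and that of TRIB3 6.92% ± 0.427 and 11% ± 0.699.

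Further genes of the pathway were taken from 9 lists, some of whose genes stand in more than one list. They are described by counts and medians, beside a median log2 fold change of -0.0033 and shares of 17.6% called higher and 16.6% lower over all tested genes. The shares called higher were close to that background in the mTORC1 list (21.1%), the CHOP-linked list (23.1%) and the paralogs (20%), and were 71.9% in the ATF4 target list and 72.7% in the eIF2 list. The list closest to the output of ATF4 is that of its known target genes outside the 10, with 61 genes, 57 of them tested. Of these 41 were higher and 1 lower, and the median log2 fold change was 0.80. The largest increases that met the rule for named genes were those of GTPBP2 (log2 fold change 4.24), a rescue factor for stalled ribosomes, CCPG1 (2.87), a receptor for ER autophagy, and HERPUD1 (2.78), an ER-associated degradation factor. The tested genes of this list were called higher in large part, while the ATF4 mRNA did not pass the test. The interval of the ATF4 mRNA reaches at most 1.13 times the untreated level. Counts of mRNA do not measure the protein. By immunoblot, the authors report a significant rise of the ATF4 protein with tunicamycin in this cell line, at a slightly higher dose. An mRNA that did not pass the test thus does not mean that ATF4 did not respond. Whether ATF4 drove these genes was not tested, and the list was chosen with earlier results of these data known. The lysosomal sialidase NEU1 was the gene that fell (-1.04). FGF21, FAM129A, LAMP3 and RPS6KA2, named after their values were seen, were not tested, the first for having no counts and the others for having few.

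Among 15 tested of 16 partners and relatives of ATF4 and CHOP, 6 (40%) were higher and 1 (6.67%) lower, with a median of 0.27. CEBPB, a partner of both factors, rose from 145 ± 11.1 to 419 ± 66.5 normalized counts (± SD of 5 libraries, log2 fold change 1.53). CEBPG, which dimerizes with ATF4, rose from 114 ± 27.3 to 261 ± 39.3, and FOSL1, an AP-1 subunit, from 15.5 ± 5.6 to 42.5 ± 7.39. CEBPA, the C/EBP factor of differentiated hepatocytes, fell from 548 ± 19.0 to 442 ± 40.1.

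The remaining eIF2 kinases and their regulators held 3 higher and 1 lower of 10 tested genes, with a median of 0.18. These are 30% and 10%, beside 17.6% and 16.6% of all tested genes. DNAJC3 (P58IPK), an ER co-chaperone described as an inhibitor of PERK and PKR, rose from 461.5 ± 78.7 to 1755 ± 259.5 normalized counts (± SD of 5 libraries, log2 fold change 1.93). EIF2AK3 (PERK) had 104 ± 20.8 and 145 ± 26.4, a log2 fold change of 0.47 (SE 0.15, edgeR adjusted p = 0.0229) with overlapping groups. It lost its call without untreated replicate 2 or 4 or tunicamycin replicate 2 or 3, with adjusted p-values of 0.0553 to 0.0756. EIF2AK2 (PKR) did not pass (0.10, adjusted p = 0.477). PRKRA, an activator of PKR, rose (0.79). GCN1, the activator of GCN2, listed as GCN1L1, fell from 460 ± 12.7 to 384 ± 23.4, without overlap (-0.26, adjusted p = 0.019), and its adjusted p was 0.056 without tunicamycin replicate 3. The genes of GCN2 and its activator were both called slightly lower in the main fit. Without tunicamycin replicates 4 and 5 neither was called (edgeR adjusted p = 0.154 and 0.0572). IMPACT (0.25), NCK1 (0.50), DELE1, listed as KIAA0141 (-0.26), OMA1 (-0.11) and TARBP2 (-0.04) did not pass. DELE1 was called without tunicamycin replicate 1 (-0.37, adjusted p = 0.0385).

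The substrate and the phosphatase were examined in the same way. Of 11 genes for eIF2, its exchange factor eIF2B and related factors, 8 were higher and 0 lower, with a median log2 fold change of 0.40. With any 1 library left out, 6 to 7 were called higher. EIF2D rose from 59.7 ± 34.4 to 152 ± 41.5 normalized counts with overlapping groups, and EIF2A (218 ± 17.6 to 353 ± 27.1) and EIF2S3 (227 ± 29.95 to 369 ± 83.0; SD, n = 5 each) without overlap. EIF2A and EIF2D are factors of alternative initiation, and EIF2S3 is the gamma subunit of eIF2. The 3 catalytic subunits of protein phosphatase 1 differed little, with PPP1CB higher (245 ± 12.99 to 326 ± 25.7, log2 fold change 0.41) and PPP1CA (-0.0021) and PPP1CC (0.05) not past the test, and a list median of 0.05.

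Paralogs of the 10 genes gave 1 call, higher, among 5 tested, with a median of 0.18. TRIB1, which like TRIB3 is a pseudokinase, rose from 129 ± 14.4 to 186 ± 24.2 normalized counts (± SD of 5 libraries, log2 fold change 0.52, adjusted p = 0.00224), with overlapping groups. TRIB2 (0.56, standard error 0.53), CHAC2, SESN1 (-0.04) and ATF5 (-0.19), another factor whose translation responds to eIF2 phosphorylation, did not pass. SESN3 had 8 counts in all libraries together and DDIT4L had 0, so that a response was not detectable at this depth.

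Around SESN2 and DDIT4, 4 of 19 tested genes of mTORC1 control were higher and 0 lower, with a median of 0.02. EIF4EBP1, the translation inhibitor that mTORC1 phosphorylates, rose from 80.5 ± 14.3 to 248.7 ± 18.6 normalized counts, and SEH1L, a subunit of both GATOR2 and the nuclear pore, from 60.5 ± 8.41 to 155 ± 27.5. RHEB, the GTPase that activates mTORC1, rose from 69.1 ± 20.9 to 116 ± 14.3 with overlapping groups (SD, n = 5 each). SEC13, which like SEH1L serves GATOR2, was the remaining gene called (0.29), named after its value was seen. MTOR itself (0.06) did not pass.

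Of 9 tested glutathione genes around CHAC1, 3 were higher and 3 lower, with a median of -0.29. GCLC (126.7 ± 18.8 to 272 ± 29.7 normalized counts) and GCLM (100.2 ± 12.5 to 172.5 ± 20.4), the subunits of the first enzyme of glutathione synthesis, and SLC7A11 (802 ± 112 to 1375 ± 53.1; SD, n = 5 each), the cystine importer, rose without overlap. ANPEP, a peptidase that acts on the cysteinylglycine left by glutathione breakdown, fell from 574 ± 30.04 to 361 ± 46.0. OPLAH, 5-oxoprolinase, fell from 56.9 ± 8.47 to 40.8 ± 4.97 with overlapping groups (adjusted p = 0.0325), and lost its call without untreated replicate 1, 2, 4 or 5 or tunicamycin replicate 2 or 3, with adjusted p-values of 0.0643 to 0.0996. GGT1, which cleaves extracellular glutathione, was the remaining gene called lower (-0.48), named after its value was seen. GSS, the second enzyme of synthesis (-0.29), GGCT (-0.14) and GGT7 (-0.53) did not pass.

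Of 13 genes linked to CHOP in cell death and oxidative folding, 3 were higher and 0 lower, with a median log2 fold change of 0.20. ERO1B, an ER oxidase listed as ERO1LB, rose from 24.7 ± 5.52 to 137 ± 19.1 normalized counts, and TNFRSF10B, the death receptor DR5, from 297 ± 77.4 to 575 ± 73.7 (SD, n = 5 each). CASP4 rose from 161 ± 12.6 to 200.3 ± 12.6 (log2 fold change 0.32, edgeR adjusted p = 0.0202), and its adjusted p was 0.0549 without untreated replicate 5 and 0.0594 without tunicamycin replicate 1. The other 10 genes, among them BBC3, PMAIP1 and BCL2L11, did not pass. ERO1A, the other ER oxidase of the list, listed as ERO1L, is also among these 10 (0.20, edgeR adjusted p = 0.11), named after its value was seen. In the fit with the replicate number as a block, 5 of the 13 were called higher. At an unadjusted p under 0.05 in edgeR, 0 genes were lower in the lists of eIF2, phosphatase, paralog and CHOP-linked genes and 1 in the mTORC1 list, and DESeq2 called 0 lower in each of these lists.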

How the data were processed

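Total RNA of HepG2 cells was sequenced as QuantSeq 3′ libraries. The authors mapped reads to hg19 with Ensembl transcript definitions in the nf-core RNA-Seq pipeline at default settings and deposited raw counts per gene, and the aligner, the counting program and the strand setting are not given in the sources used here. Genes were kept by filterByExpr (min.count 2, min.total.count 10), following the study's methods. After TMM scaling they were tested in edgeR 4.0.16 under R 4.3.3 by the quasi-likelihood method, with condition as the only term and Benjamini-Hochberg adjustment over 12733 genes. The standard error is the absolute log2 fold change divided by the square root of F. Within-library ratios used a pseudocount of 0.5. The 10 genes and the lists were chosen with earlier results of these data known. Named list genes are the 3 higher and 2 lower called genes with the largest log2 fold changes, a mean of 20 or more normalized counts and 1 direction in 5 of 5 pairs, and all genes of the kinase, phosphatase and paralog lists. Replicate numbers pair libraries by experiment day, per the series text. Correlations of paired deviations from group means over 9711 genes were 0.329, 0.0026, 0.0907, 0.153 and 0.109. By such correlations, only 2 of the 5 tunicamycin libraries were closest to the untreated library of their own number.

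With 2234682 to 5029864 counts per library, genes with few counts are measured with little precision. On simulated data with this design and 12581 genes tested, 78.8% of genes changed by a log2 fold of 1 and 26.2% of those changed by 0.5 were called, with 8 unchanged genes called. Only 65, 66 and 62 of the tested genes were changed there, by 0.5, 1 and 2. In the data 2237 genes were called higher and 2116 lower. The adjusted threshold depends on the number of changed genes, so that these shares need not hold for the data. Alternatives were DESeq2 1.42.0, its size factors, library size only, no filter, default filter minimums, the replicate block, DESeq2 with the block, thinned counts and each library left out. The fit without tunicamycin replicates 4 and 5 was chosen after seeing the data.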

Additional observations from a re-analysis of the deposited data

Results flagged for a closer look

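In 11 of 114 groups of 5 values, 1 library stood apart by Dixon's criterion, which chance meets in about 1 of 20 groups (5.7 of 114). Of the core genes, PPP1R15A was flagged, with 37.0 normalized counts in untreated replicate 1 against 60.03 to 66.5 in the others. In tunicamycin replicate 4, the log2 ratio of EIF2AK1 to EIF2AK4 was 3.54 against 2.53 to 2.75, and that of TRIB3 to ATF4 -1.74 against -2.22 to -2.08. That library had the highest mitochondrial share, 28.8%, and the second lowest total, and the part of either in these values was not tested. In list genes, the values in normalized counts were 42.9 for OMA1 in untreated replicate 3 (28.7 to 31.2 in the others), 87.8 for PRKRA in untreated replicate 1 (117 to 127) and 254 for PRKRA in tunicamycin replicate 5 (174 to 196). TRIB1 had 143 in tunicamycin replicate 4 (191.5 to 202), SESN1 92.3 in tunicamycin replicate 2 (69.3 to 75.6), SESN3 1.37 in tunicamycin replicate 4 (0 in the others), OPLAH 42.0 in untreated replicate 3 (58.9 to 62.8) and CASP4 222 in tunicamycin replicate 1 (191.5 to 199). The flags fall in 6 libraries.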

How the results depend on the processing

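PPP1R15A, DDIT3 and TRIB3 were called higher in all 10 fits that left out a library and in the other 9 alternatives, with log2 fold changes of 1.39 to 1.58, 1.31 to 1.49 and 0.72 to 0.85. EIF2AK4 was not called with no filter (-0.30, adjusted p = 0.0537, more genes tested), in DESeq2 with the replicate block (-0.31, 0.0577) and without tunicamycin replicates 4 and 5 (-0.21, 0.154), each leaving 0 of the 10 genes called lower; with single libraries left out it ran from -0.33 to -0.22 (adjusted p from 0.0303 to 0.0988), with 0 to 1 gene called lower. Over all 9 other alternatives its adjusted p was 0.0201 to 0.154, and it was called in 6 of them.

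The genes that did not pass changed sign in places. ATF4 was at 0.073 without tunicamycin replicates 4 and 5, and from -0.092 to 0.039 with single libraries left out. SESN2 was at -0.076 with library size only, -0.0014 with the default filter and -0.035 after thinning (-0.048 to 0.058 with libraries left out). PPP1R15B was at -0.048 with library size only (-0.019 to 0.088). EIF2AK1 was at -0.050 with library size only and -0.054 without tunicamycin replicates 4 and 5 (-0.058 to 0.090). Among list genes TARBP2 (0.12), PPP1CA (0.14) and TRIB2 (-0.0075) reversed without tunicamycin replicates 4 and 5 and PPP1CC with library size only (-0.031). With single libraries left out, OMA1 ran from -0.22 to 0.017, TARBP2 from -0.14 to 0.064, PPP1CA from -0.077 to 0.076 and CHAC2 from -0.043 to 0.33.

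Without tunicamycin replicates 4 and 5, 0 kinase-list genes and 0 partners were called lower, and 1 glutathione gene, as after thinning (1). Of ATF4 targets, 2 were lower in DESeq2, with the default filter, with the replicate block and in DESeq2 with the block, and 3 with library size only. In the mTORC1 list 1 gene was lower with library size only and 1 with the replicate block, and in the CHOP list 5 were higher with the block. Left-out libraries gave 0 to 2 lower kinase genes, 0 to 1 lower mTORC1 genes and 1 to 2 lower ATF4 targets. The paired test of the ratios, the replicate block, kept PPP1R15A/PPP1R15B at 1.501, DDIT3/ATF4 at 1.45 and TRIB3/ATF4 at 0.84, each with an adjusted exact p of 0.0781, as 5 pairs cannot reach the threshold. EIF2AK1/EIF2AK4 passed after thinning (0.39), and ran from 0.17 to 0.42 with libraries left out (adjusted exact p from 0.0397 to 0.278). SESN2/DDIT4 was at 0.020 without tunicamycin replicates 4 and 5, and from -0.21 to 0.011 with libraries left out. Unless a construction is named, the cause was not tested. Depth limits genes of few counts, such as TRIB2 and CHAC2.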
